A study of Rattus norvegicus with 12 samples.

Results

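The tenascins, thrombospondins and fibronectin are large glycoproteins of the extracellular matrix. Their genes were taken as those whose symbol in the annotation of the array is Tnc, Tnn, Tnr, Thbs1, Thbs2, Thbs3, Thbs4, Comp or Fn1. Of these 9 genes, 8 were measured, each by 1 probe set, among 14217 genes with a probe set of their own and 31042 probe sets tested. No probe set carried the symbol Thbs1 in the annotation used, so Thbs1 was not analysed here.

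Bronchi were cut by laser from frozen lung sections of male Wistar Han rats, 6 to 7 weeks old when obtained, that were exposed to filtered air or to 200 ppm 2,3-pentanedione (PD), in 12 daily sessions of 6 hours over 2 weeks. PD is a diketone flavoring vapor that injures airway epithelium. The 12 arrays comprised 6 of air-exposed control bronchi (replicates 1 to 6) and, from PD-exposed rats, 3 of non-fibrotic bronchi (replicates 4, 8 and 10) and 3 of fibrotic bronchi (replicates 3, 7 and 9). Transcript abundance was read as MAS5 signal, the summary that Affymetrix software gives for a set of probes, and is given on the log2 scale. Fibrotic specimens were polyps or plaques in the lumen with the wall beneath them, while control and non-fibrotic specimens held the lining epithelium with its wall. The 3 rats that gave non-fibrotic bronchi were among the 5 PD-exposed rats that gave fibrotic bronchi, and specimens could not be matched to rats from the labels. P-values therefore describe the spread between these specimens only. A specimen is a mixture of cells, so fewer cells of a type and less RNA per cell cannot be told apart.

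The background level was a log2 of 6.52, the highest of 84 values of bacterial transcripts taken as not added to the samples. Signals above it were taken as told from cross-hybridization. The values were those of the Trpn probe sets on all arrays and of the poly-A control probe sets on controls 1 and 2. That poly-A controls were not added to those arrays was an inference from their low signal. Controls 1 and 2 carried labels of the same form as the exposed arrays, and controls 3 to 6 carried labels of another form. The log2 ratio of the 3′ to the 5′ probe sets of Gapdh, a sign of RNA shortening, was 1.16 to 2.03 in controls 1 and 2, 0.704 to 0.897 in controls 3 to 6, 1.95 to 2.35 in non-fibrotic bronchi and 1.59 to 2.11 in fibrotic bronchi. Controls 1 and 2 stood apart from all other arrays in the mean log2 signal of the poly-A control probe sets, at 2.31 to 2.33, against 9.99 to 10.63 on controls 3 to 6, 10.40 to 11.06 on non-fibrotic and 8.02 to 10.68 on fibrotic arrays. The part of these differences in the results below was not tested.

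Fibronectin forms fibrils that cells assemble outside the membrane through integrins, and it is an early component of provisional matrix in wounds. Tenascins are modular proteins that modify adhesion of cells to fibronectin, and tenascin-C is sparse in most adult tissue but abundant during development and repair. Thrombospondins bind calcium, collagens and cell surface receptors, and in the airway wall they come from mesenchymal cells, endothelium and platelets.

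Upstream sequence is given for Tnc and Tnn, whose signals on every fibrotic array were above those on every control, and for Thbs3, whose fibrotic arrays lay within the control range. The windows hold the 250 bases before the RefSeq start of each gene in the rat assembly GRCr8, written 5′ to 3′ on the strand of the gene. RefSeq promoters were matched for 7 of the 9 genes, and Fn1 and Thbs2 had no entry. Capitals mark matches, on either strand, to short elements known from many promoters. TATANA stands for the TATA element that positions transcription. CCAAT is the core of the CCAAT box, bound by the factor NF-Y. The GC box of Sp1 factors was searched as GGGCGG. The site of TEAD factors, which act with the YAP protein, was searched as CATTCC.
Tnc (chr5:82476132-82476381, minus strand): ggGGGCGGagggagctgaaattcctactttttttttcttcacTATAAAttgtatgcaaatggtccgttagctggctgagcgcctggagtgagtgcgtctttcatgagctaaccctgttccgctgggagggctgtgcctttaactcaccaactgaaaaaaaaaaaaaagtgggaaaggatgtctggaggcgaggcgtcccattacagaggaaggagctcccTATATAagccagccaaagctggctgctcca
Tnn (chr13:74919790-74920039, minus strand): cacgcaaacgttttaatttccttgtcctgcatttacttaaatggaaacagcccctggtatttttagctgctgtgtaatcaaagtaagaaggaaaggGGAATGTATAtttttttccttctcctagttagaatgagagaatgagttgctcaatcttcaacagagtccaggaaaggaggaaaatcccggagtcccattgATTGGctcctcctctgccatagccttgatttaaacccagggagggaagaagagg
Thbs3 (chr2:176919349-176919598, plus strand): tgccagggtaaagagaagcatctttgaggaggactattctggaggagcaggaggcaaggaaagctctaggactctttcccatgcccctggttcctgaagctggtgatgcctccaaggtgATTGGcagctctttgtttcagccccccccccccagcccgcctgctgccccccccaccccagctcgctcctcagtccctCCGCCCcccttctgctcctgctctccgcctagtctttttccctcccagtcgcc

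The window of Tnc held TATA elements that began 208 and 30 bases before the start and a GC box 248 bases before it. That of Tnn held a CATTCC match 154 bases before the start, which overlaps a TATA element beginning at 150 bases, and a CCAAT box at 54 bases. That of Thbs3 held a CCAAT box at 131 bases and a GC box at 53 bases, and no TATA element. Of all 33469 promoter windows of this length, 24.2% held a TATANA match, 34.0% a CCAAT match, 30.5% a GGGCGG match and 12.1% a CATTCC match. TGANTCA (the AP-1 site) and the CArG box bound by serum response factor were also searched on both strands, were present in 6.34% and 1.50% of windows, and matched none of the 7. These matches describe the letters of the windows and no site was tested.

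In fibrotic bronchi, 3 of the 8 measured genes were up-regulated relative to air-exposed controls and 0 were down-regulated. Fn1 was 27.6-fold higher, Tnc 16.6-fold higher and Thbs2 at least 13.2-fold higher. Calls rest on a limma model of all 31042 probe sets, with Benjamini-Hochberg adjustment and a threshold of 0.01. In the same comparison 2.99% of all probe sets were called higher and 6.4% lower. At an unadjusted p under 0.05, 5 of the 8 genes were higher and 0 lower, against 15.9% and 16% of all probe sets. The median log2 difference of the 8 genes was 2.95, against 0.10 over all genes, and 2.16 against 0 with signals under background set to that level. Tnc, Tnn, Thbs2 and Fn1 were higher on every fibrotic array than on every control, which held for 12.3% of all probe sets.

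**Figure D1:**
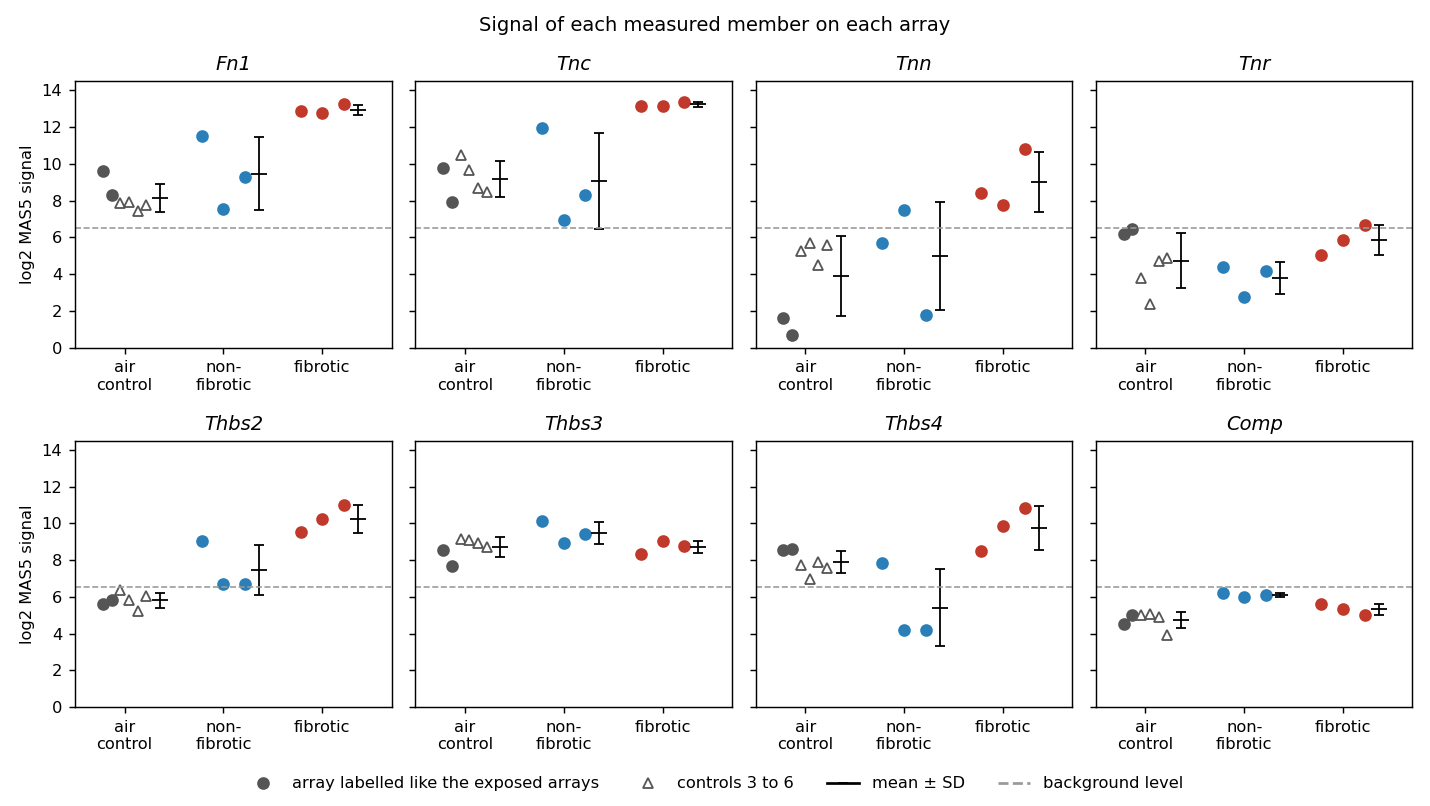
The log2 MAS5 signal of each measured gene on each of the 12 arrays, by group, with the mean ± SD of each group beside the points and the background level of 6.52 as a dashed line. Filled circles are arrays with labels of the form of the exposed arrays and open triangles are controls 3 to 6. The fibrotic arrays of Fn1 and Tnc sit between 12.74 and 13.36, and all arrays of Comp lie under the background level.

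Fn1 encodes fibronectin. Its log2 signal in controls ranged from 7.44 to 9.63 with a median of 7.89. Fibrotic arrays gave 12.84, 12.74 and 13.22 for replicates 3, 7 and 9. Every fibrotic array was thus above every control by a wide margin, and the fibrotic arrays lay close together (12.94 ± 0.26, SD, n = 3, against 8.15 ± 0.78, n = 6). The log2 difference was 4.79 (SE 0.62, 95% interval 3.47 to 6.11, adjusted p = 6.05e-05). Against controls 1 and 2 alone it was 3.97, with an adjusted p of 0.016 that no longer passed. Against controls 3 to 6 alone it was 5.19 (adjusted p = 9.2e-05). Control 1 was the highest of the controls.

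Tnc encodes tenascin-C, the tenascin of wound beds and remodelling matrix. Its log2 signal in controls ranged from 7.93 to 10.50 with a median of 9.17. Fibrotic arrays gave 13.15, 13.16 and 13.36. The fibrotic arrays were nearly equal (13.23 ± 0.12, SD, n = 3) while the controls spread widely (9.17 ± 0.97, n = 6), and the groups did not overlap. The log2 difference was 4.06 (SE 0.78, 95% interval 2.40 to 5.71, adjusted p = 0.00175). The call was kept with controls 3 to 6 alone (log2 3.90, adjusted p = 0.00602). Over 25 alternatives the adjusted p was under 0.01 in 17. The call was lost with controls 1 and 2 alone (log2 4.37, adjusted p = 0.0331) and with a floor at the 20th percentile (adjusted p = 0.0153). It was lost too with the form of the label as a block (adjusted p = 0.0162). It was also lost without fibrotic 3, 7 or 9, with adjusted p of 0.0105, 0.0102 and 0.0108, while the log2 difference stayed between 3.99 and 4.09.

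Tnn encodes tenascin-N, also called tenascin-W, which is found in bone, stem cell niches and the stroma of tumours. All controls lay under the background level, at a log2 of 0.68 to 5.67 with a median of 4.86. Fibrotic arrays gave 8.43, 7.73 and 10.83, all above background. The groups did not overlap, and fibrotic 9 was the highest. Tnn was at least 5.57-fold higher in fibrotic bronchi by this bound, with an adjusted p of 0.0119 that just missed the threshold. Its fitted log2 difference of 5.12 (SE 1.30) depends on control signals below background and is no measure of size. Tnn passed with a pseudocount of 16 (adjusted p = 0.0017), with a floor at the 20th percentile (0.00423), with only the groups compared in the model (0.00707) and with the form of the label as a fixed block (0.00176). Over 24 alternatives its adjusted p was under 0.01 in only 7 and under 0.05 in 22, and it lay between 0.0017 and 0.0778. The largest value came with 1 array left out.

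Tnr encodes tenascin-R, a tenascin of the nervous system. Tnr was under the background level on 11 of the 12 arrays. Fibrotic 9, at a log2 of 6.66, was the exception.

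Thbs2 encodes thrombospondin-2, a secreted protein of fibroblasts that affects collagen fibrils and limits the growth of vessels. All controls lay under background, between 5.22 and 6.38 with a median of 5.81. Fibrotic arrays gave 9.51, 10.21 and 10.98. Every fibrotic array was above background and above every control. The log2 difference was 4.43 (SE 0.53, adjusted p = 2.99e-05), which gives at least a 13.2-fold rise once controls are set to the background level. Thbs2 passed under all 25 alternatives, and its largest adjusted p was 0.0049, with controls 1 and 2 alone. It was the only one of the genes called with those controls.

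Thbs3 and Thbs4 belong, with Comp, to the thrombospondins that assemble as pentamers. Thbs3 had a log2 signal of 7.69 to 9.14 in controls, with a median of 8.84. Fibrotic arrays gave 8.35, 9.03 and 8.78, all within the range of the controls. The log2 difference was 0.03, with a 95% interval of -0.73 to 0.79 (adjusted p = 0.97). Its sign turned in 4 alternatives.

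Thbs4, a thrombospondin of muscle, tendon and injured tissue, had a log2 signal of 7.00 to 8.59 in controls with a median of 7.84. Fibrotic arrays gave 8.49, 9.88 and 10.85. Fibrotic 3 lay within the control range, just under controls 1 and 2, and the other fibrotic arrays lay above it. The log2 difference of 1.84 (95% interval 0.31 to 3.37) did not pass (adjusted p = 0.0905).

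Comp, the cartilage oligomeric matrix protein, was under the background level on all 12 arrays, between 3.92 and 6.22, so no fold is given. Of 8 measured cartilage markers, 6 were under background on all controls and 6 on all fibrotic arrays, Col2a1 among them in both.

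Non-fibrotic bronchi showed no call for these genes. Relative to controls, 0 of 8 were up-regulated and 0 were down-regulated in the limma model, where 0.164% of all probe sets were called higher and 0.358% lower. At an unadjusted p under 0.05, Thbs2, Thbs3 and Comp were higher and Thbs4 was lower, 3 and 1 of the 8 genes against 14.6% and 11.8% of all probe sets. The median log2 difference of the 8 genes was 0.95, against 0.00 over all genes, but only 0.16, against 0, with signals under background set to that level. Higher on every non-fibrotic array than on every control were 2 genes, Thbs2 and Comp, a pattern of 9.23% of all probe sets, and Comp was under background throughout.

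For Tnc and Fn1 the 3 non-fibrotic arrays differed from each other more than the fibrotic arrays did. For Tnc they gave 11.94, 6.92 and 8.32 in replicates 4, 8 and 10, and for Fn1 11.52, 7.56 and 9.27. Non-fibrotic 4 was above every control for both genes, while non-fibrotic 8 and 10 were within or below the control range. The log2 differences from controls were -0.11 for Tnc (95% interval -1.76 to 1.54, adjusted p = 0.946) and 1.30 for Fn1 (-0.02 to 2.62, adjusted p = 0.195). The SD of Tnc was 2.59 in non-fibrotic bronchi and 0.12 in fibrotic bronchi. Non-fibrotic 4 had the highest signal of the 3 arrays for 7 of the 8 genes, and non-fibrotic 8 for Tnn. Among those 7, Tnr and Comp were under background on all 3 arrays, so their order is not a measured one. The share of all probe sets highest on non-fibrotic 4 was not counted.

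**Figure D2:**
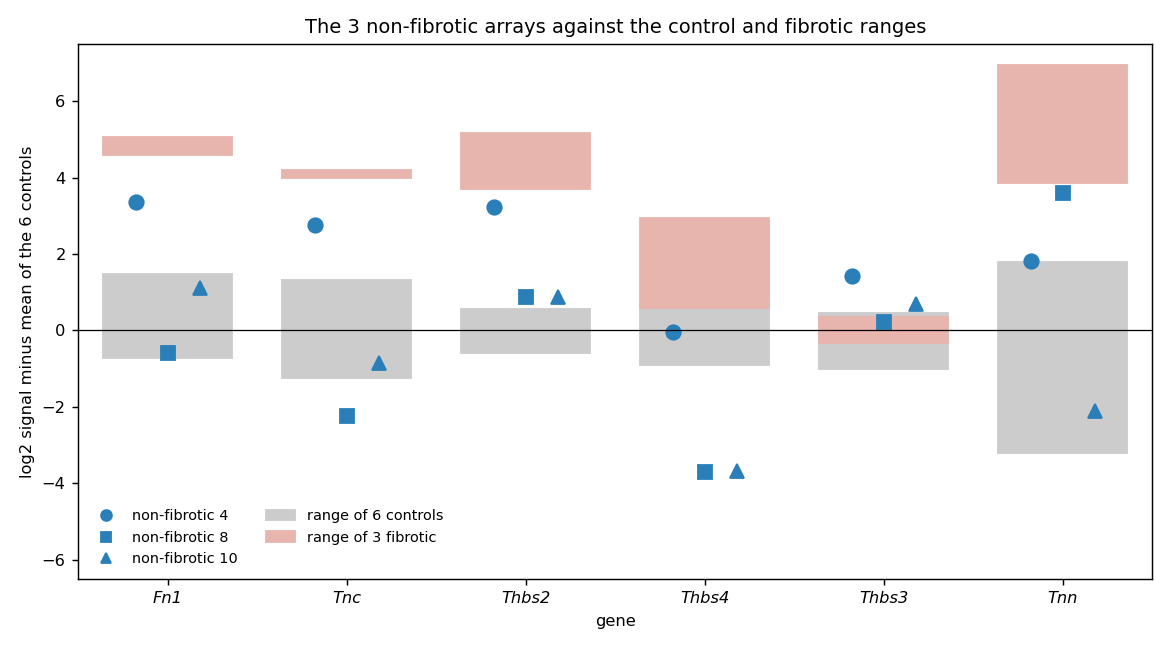
The log2 signal of the non-fibrotic arrays 4, 8 and 10 minus the mean of the 6 controls for 6 genes, with the range of the controls in grey and the range of the fibrotic arrays in red. Non-fibrotic 4 lies between both ranges for Fn1, Tnc and Thbs2, at 3.37, 2.77 and 3.23. For Fn1, 8 and 10 lie within the controls. For Tnc, 10 lies within the controls and 8 below them, at -2.25. For Thbs2, 8 and 10 lie just above the controls, at 0.88 each. For Thbs4, 8 and 10 lie below the controls and below the background level, and the grey and red ranges overlap for Thbs4 and Thbs3.

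Thbs2 was 9.04 on non-fibrotic 4, and 6.69 and 6.68 on the other arrays, just above background. All 3 were above the controls. The difference was at least 1.94-fold and did not pass (log2 1.66, SE 0.53, adjusted p = 0.0695). Thbs4 went the other way. It gave 7.85 on non-fibrotic 4, inside the control range, and 4.19 and 4.21 on non-fibrotic 8 and 10, under background. The log2 difference from controls was -2.48 and did not pass (adjusted p = 0.0536), and with arrays under background set to that level it was -0.93. Without non-fibrotic 4 the difference was -3.70 and passed (adjusted p = 0.00313), with the controls at least 2.60-fold higher than the arrays left.

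Thbs3 gave 10.11, 8.93 and 9.40 on the non-fibrotic arrays, with a log2 difference of 0.79 from controls (95% interval 0.03 to 1.55, adjusted p = 0.176). Tnn gave 5.70, 7.48 and 1.77, and only non-fibrotic 8 was above background. Summed signals of the fibroblast markers on non-fibrotic 4, 8 and 10 were 55306, 47479 and 38500, and those of the macrophage markers were 28546, 20984 and 26249. Non-fibrotic 4 was thus highest for both lists as well. It was also highest for smooth muscle, platelet, and basal and squamous markers. It was lowest of the 3 for ciliated cell markers (25929, 39620 and 29840), and for club cell, alveolar and cartilage markers. Non-fibrotic 10 was highest for endothelial markers, and non-fibrotic 8 for Schwann and glial markers. Control 1 had a fibroblast sum of 52625, near that of non-fibrotic 4. The part of these in the spread of Tnc, Fn1 and Thbs2 was not tested.

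Between fibrotic and non-fibrotic bronchi of PD-exposed rats, 4 of the 8 genes were higher in fibrotic bronchi, namely Thbs4, Fn1, Tnc and Thbs2, and 0 were lower. Over all probe sets 1.07% were called higher and 2.75% lower. At an unadjusted p under 0.05, 5 genes were higher and 0 lower, against 11.1% and 12.1% of all probe sets. The 3 fibrotic and 3 non-fibrotic specimens came from 5 PD-exposed rats, so specimens of the same rat must be among them. The p-values do not allow for that. Higher on every fibrotic than on every non-fibrotic array were 6 genes, the 4 called ones with Tnn and Tnr, a pattern of 10.9% of all probe sets. The median log2 difference of the 8 genes was 3.13, against 0.00 over all genes, and 2.46 against 0 with signals under background set to that level.

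Thbs4 had the smallest p of the 8 genes, with a log2 difference of 4.32 (SE 0.83, 95% interval 2.56 to 6.09, adjusted p = 0.00392). With the arrays under background set to that level it was 2.77. The lowest fibrotic array, 8.49, was above the highest non-fibrotic array, 7.85. Fibronectin followed, with Fn1 3.49 higher (SE 0.72, adjusted p = 0.00618), or 11.2-fold. Tnc was 4.16 higher (SE 0.90, adjusted p = 0.00826), or 17.9-fold. Thbs2 was 2.76 higher (SE 0.62, adjusted p = 0.00994), or 6.79-fold, at the edge of the threshold.

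These 4 calls changed with the processing. Over 25 alternatives the adjusted p was under 0.01 in 15 for Thbs4, 14 for Fn1, 8 for Tnc and 6 for Thbs2. It was under 0.05 in 25, 24, 23 and 24 of them, and the direction was the same in all. Against controls the adjusted p was under 0.01 in 25 for Thbs2, 24 for Fn1 and 17 for Tnc. Without non-fibrotic 8 or 10, or without fibrotic 7 or 9, 0 of the 4 passed, and without fibrotic 3 only Thbs4 passed. Without non-fibrotic 8 the log2 differences fell to 3.09 for Tnc, 2.54 for Fn1, 3.71 for Thbs4 and 2.37 for Thbs2, and without non-fibrotic 10 they were 3.80, 3.40, 3.72 and 2.37. Without non-fibrotic 4 all 4 passed, with log2 differences of 5.54 for Thbs4, 5.60 for Tnc, 4.52 for Fn1 and 3.55 for Thbs2. Without control 1, 4, 5 or 6, 2 passed, and without control 2 or 3, 3 passed, with the log2 differences themselves as before.

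**Figure D3:**
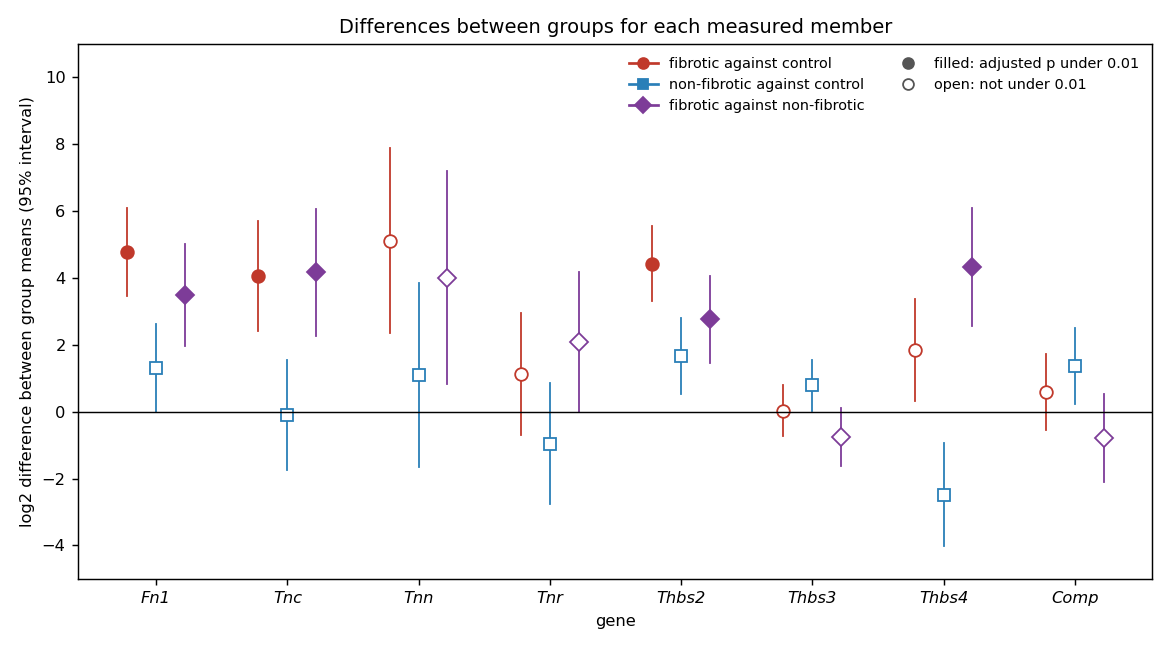
Differences between group means on the log2 scale for each measured gene, with 95% intervals, for fibrotic against control (circles), non-fibrotic against control (squares) and fibrotic against non-fibrotic (diamonds). Filled symbols have an adjusted p under 0.01. Fn1, Tnc and Thbs2 are filled in both comparisons of fibrotic bronchi, and Thbs4 only for fibrotic against non-fibrotic bronchi (4.32). Several values rest wholly or partly on arrays under background. These are the values of Tnn, Tnr and Comp, of Thbs2 against controls, and of Thbs4 in both comparisons that include non-fibrotic bronchi.

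For the other members of this comparison, Tnn gave a log2 difference of 4.01 (SE 1.50, adjusted p = 0.111), or 2.16 with arrays under background set to it. Thbs3 was -0.76 (95% interval -1.64 to 0.12, adjusted p = 0.294). Tnr and Comp lay at or under background in both groups, apart from fibrotic 9 for Tnr.

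Receptors of these proteins are mainly integrins, with CD36, CD47, LRP1 and syndecan-4 among the others. Of 21 measured receptor genes, 4 were called higher and 1 lower in fibrotic than in control bronchi. Itgb1, the beta chain shared by the fibronectin receptors, was 2.26-fold higher (log2 1.18, SE 0.16, adjusted p = 0.000116). Lrp1, the receptor that takes up thrombospondins, was 2.97-fold higher (adjusted p = 0.00114), and Itgav, the integrin chain alpha-v, 2.41-fold (adjusted p = 0.00229). Sdc4, the syndecan that binds the heparin site of fibronectin, was 2.61-fold lower (adjusted p = 0.00147). The fourth call, Itgb3, the partner of alpha-v, was 5.84-fold higher (adjusted p = 0.00922) and is named after its values were seen. Itga5, the alpha chain of the classical fibronectin receptor, was 6.34-fold higher but did not pass (adjusted p = 0.0251) and is likewise named after its values were seen. The median of the list was 0.66. In the same model 8 were higher and 2 lower at an unadjusted p under 0.05, against 15.9% and 16% of all probe sets.

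Of 12 genes for assembly of fibronectin fibrils (integrin, syndecan and focal adhesion genes), 1 was called higher and 1 lower. These were Itgb1 and Sdc4, which the receptor list also holds, and the median was 0.31. Of the 12 genes, 5 were higher and 2 lower at an unadjusted p under 0.05.

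Among 16 proteases and cross-linkers that act on this matrix, 5 were called higher and 0 lower, with a median of 1.40, or 0.57 with signals under background set to that level. At an unadjusted p under 0.05, 9 were higher and 0 lower. Plau, the urokinase plasminogen activator, was 15.2-fold higher (log2 3.92, SE 0.47, adjusted p = 3.03e-05). Adamts4, a metalloproteinase that cleaves aggrecan and other matrix proteoglycans, was 21.5-fold higher (adjusted p = 0.00046), and Mmp14, a membrane-bound collagenase, 3.35-fold (adjusted p = 0.0012). Mmp7 and Mmp13 were called, but all controls lay under background, and the bounds were at least 1.44-fold and 1.11-fold. Mmp13 is named after its values were seen.

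Among 12 measured genes that induce these proteins (TGF-beta and activin ligands and receptors, mechanical and injury factors), 7 were called higher and 0 lower, with a median of 1.44. At an unadjusted p under 0.05, 8 were higher and 0 lower. Inhba, the activin A subunit, was 22.2-fold higher (log2 4.47, SE 0.62, adjusted p = 0.000105). Tgfbr1, a TGF-beta receptor, was 2.67-fold higher (adjusted p = 0.000501), and Klf6, an early injury factor, 2.18-fold (adjusted p = 0.00103). Prrx1, a mesenchymal factor, had a fitted log2 difference of 2.92 (adjusted p = 0.000959), or 2.12 with arrays under background set to it. Of the others called, Ccn2, Tgfb2 and Mrtfa ranged from a log2 difference of 1.58 to 2.80. Tgfb1 itself was not called (log2 0.84, adjusted p = 0.524). Ccn2, Tgfb2, Mrtfa and Tgfb1 are named after their values were seen.

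**Figure D4:**
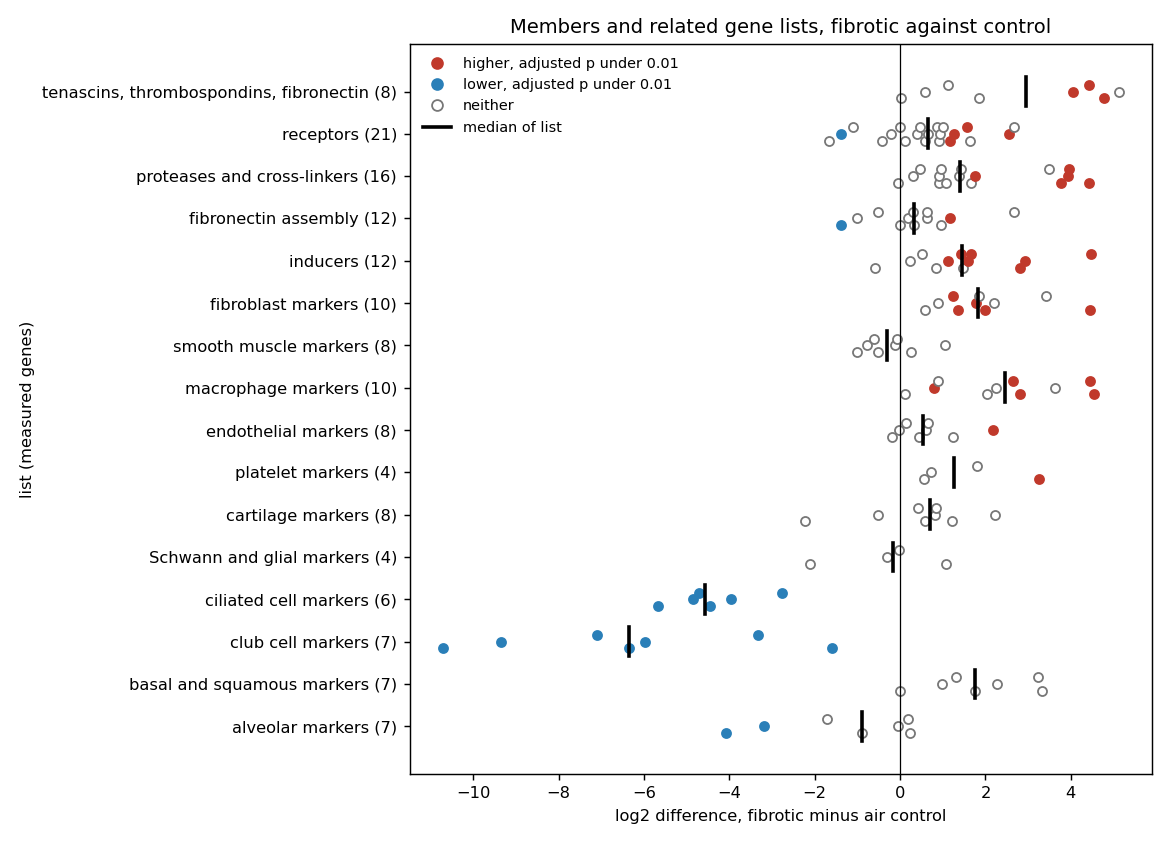
The log2 difference between fibrotic and control bronchi of each measured gene in the lists of related genes and of cell type markers, with the list's median as a bar and the number of measured genes in brackets. Red and blue points were called higher and lower. The tenascins, thrombospondins and fibronectin have a median of 2.95, inducers 1.44 and proteases 1.40 as fitted, and all measured ciliated and club cell markers are blue.

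Relative to controls, non-fibrotic bronchi had no call in the receptor, protease, assembly or inducer lists (0 of 21, 16, 12 and 12 genes in the limma model). At an unadjusted p under 0.05 these lists held 3, 4, 1 and 4 genes that were higher and 2, 1, 2 and 0 that were lower. The shares over all probe sets were 14.6% and 11.8%. Between fibrotic and non-fibrotic bronchi, the receptors Itgb3 (log2 3.93, adjusted p = 0.00273) and Egfr (2.43, adjusted p = 0.00583) were called higher. So were the proteases Htra1 (3.40, adjusted p = 0.00176) and Plau (2.95, adjusted p = 0.00309) and the inducers Inhba (5.21, adjusted p = 0.000276) and Tgfbr1 (1.36, adjusted p = 0.00472). Egfr and Htra1 are named after their values were seen. Inhba was 4.74 with arrays under background set to it.

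Markers of several cell types moved with the 3 called genes. Of 10 fibroblast markers, 5 were called higher in fibrotic than in control bronchi (median log2 1.82), and their summed signal was 30626 to 52625 on controls, 38500 to 55306 on non-fibrotic and 65590 to 89483 on fibrotic arrays. Only Fap was under background on every control. Of 10 measured macrophage markers, 5 were called higher (median 2.45), and Itgam was under background on every control and non-fibrotic array. Their sums were 13802 to 23675 on controls, 20984 to 28546 on non-fibrotic and 27250 to 47260 on fibrotic arrays. Lyz2, named after its values were seen, weighs most in them, with mean log2 signals of 13.59, 14.39 and 14.37 in these groups. Relative to controls, only 3 of the 10 had a positive difference in non-fibrotic bronchi, where 0 were called. The median there was -0.76, or -0.12 with signals under background set to that level. All 6 measured ciliated cell markers and all 7 club cell markers were called lower, with medians of -4.58 and -6.35. Between fibrotic and non-fibrotic bronchi, all 6 ciliated cell markers (median -3.82), 5 of 7 club cell markers (-3.97) and 2 of 7 alveolar markers (-2.36) were called lower, while 3 of 10 macrophage markers (3.16) and 2 of 10 fibroblast markers (1.61) were called higher. Non-fibrotic bronchi also differed from controls. There 1 of 6 ciliated (median -0.19) and 2 of 7 club cell markers (-1.22) were called lower, and 1 of 8 endothelial markers higher. Of the 7 alveolar markers 0 were called in that comparison (median 1.36). Alveolar sums were 26911 to 44448 on controls, 54278 to 69976 on non-fibrotic and 6827 to 48866 on fibrotic arrays. The part of these markers in the results for Fn1, Tnc, Thbs2 and Thbs4 was not tested.

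Smooth muscle markers had 0 of 8 called in the limma model (at an unadjusted p under 0.05, 0 higher and 1 lower), with sums of 8463 to 36067 on controls and 11267 to 24438 on fibrotic arrays. Of 4 measured platelet markers 1 was called higher, Pf4 (9.52-fold, adjusted p = 0.00587), which is named after its values were seen. Platelet sums were 283 to 508 on controls and 1298 to 2534 on fibrotic arrays, and Gp9 was under background on every array. Pf4 weighs most in the fibrotic sums, with a mean log2 signal of 10.22 there, and Ppbp was under background on every control. The median log2 difference of the platelet markers was 1.26, or 0.56 with signals under background set to that level. Of 8 endothelial markers 1 was called higher, Erg, and sums were 2321 to 5551 on controls and 5583 to 6516 on fibrotic arrays. Basal and squamous markers had no call among 7 (at an unadjusted p under 0.05, 3 higher and 0 lower, with sums of 138 to 5984 on controls and 2487 to 22910 on fibrotic arrays), and alveolar markers had 2 of 7 called lower. No Schwann or glial marker of 4 was called (at an unadjusted p under 0.05, 0 higher and 1 lower), with sums of 395 to 830 on controls and 427 to 681 on fibrotic arrays.

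The genes with the pattern most like that of each called member were found by Pearson's r of log2 signals over the 12 arrays, among all genes outside the family. For Fn1 these were Adamts4 (0.977), Vash1 (0.976), an inhibitor of vessel growth from endothelium, and Il33 (0.971), an alarmin cytokine. For Thbs2 they were Bcat1 (0.956), an enzyme of branched amino acid breakdown, Pdpn (0.953), the membrane glycoprotein podoplanin, and Col5a2 (0.952), a chain of fibrillar collagen. For Tnc they were Jak1 (0.964), a cytokine receptor kinase, Arhgap11a (0.961) and Prkar1b (0.958). The arrays fall into groups with different means, and these values describe the likeness of profiles only. The means of Prkar1b in control and non-fibrotic bronchi, 5.48 and 5.42, lay under background, as did Thbs2 on every control. The values of r for Prkar1b and for Thbs2 thus rest partly on such signals. Il33 had group means of 8.92, 9.40 and 12.71 in control, non-fibrotic and fibrotic bronchi, and Jak1 of 11.13, 11.06 and 11.60, so that the profiles are alike in shape and not in size.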

How the data were processed

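The deposited intensity values are linear MAS5 signals, computed by the authors in Affymetrix software and scaled to a common trimmed mean, for 31099 probe sets on each array. Signals of 31042 probe sets, without 57 Affymetrix controls, were taken to log2 with no pseudocount and no filter. A model of the 3 groups was fitted to all 12 arrays in R 4.3.3 with limma 3.58.1, using lmFit and then eBayes (trend by intensity), in place of the error-weighted analysis of variance of the methods, whose weights are not used here. Adjusted p-values are Benjamini-Hochberg values over all probe sets of a contrast. The model was tested on simulated data.

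The design text of the series names a rat Gene ST array, whereas the probe set names are those of the 3′ expression array whose annotation gave the symbols used here. That annotation gives 1 symbol for 20826 of these probe sets, several for 436 and none for 9780, and a gene was represented by its probe set of highest mean log2 signal. A fold against a group wholly under background is a bound. Precision is limited by the number of arrays. The genes and lists were chosen with earlier results of these data known. Named genes were all members, up to 4 called genes of a list with the smallest p in fibrotic against control bronchi, and the 3 genes most like each called member.

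Alternatives were a threshold of 0.05, a fold over 2 with an unadjusted p under 0.001, a pseudocount of 16, dropping the dimmest 40% of probe sets, quantile normalization, median centring, a floor at the 20th percentile, no intensity trend, no moderation, array weights, only the groups compared, each set of controls alone, the form of the label as a fixed or random block (statmod 1.5.0), and each array left out in turn. Arrays left in a group were assumed to vary like the others. Promoters were from RefSeq (GRCr8). Figures were drawn with matplotlib 3.10.9.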

Additional observations from a re-analysis of the deposited data

Results flagged for a closer look

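The difference between fibrotic and non-fibrotic bronchi of PD-exposed rats passed the test for 4 genes. On the log2 scale Tnc was 4.16 higher in fibrotic bronchi, Fn1 3.49 and Thbs2 2.76. Thbs4 was 4.32 higher as fitted, but 2.77 with the non-fibrotic arrays under background, 8 and 10, set to that level. Every fibrotic array was above every non-fibrotic array for each of them (3 arrays against 3). Thbs4 was the one of these genes that was not called against controls. No single control exceeded Dixon's critical value for any of the 8 measured genes, and control 1 came nearest for Fn1, with a gap of 0.608 of the range of the controls. That criterion does not see arrays that stand apart as a pair, as controls 1 and 2 did for Tnn, at 1.63 and 0.68 against 4.49 to 5.67 on the other controls, all under background. Groups of 3 arrays were not examined.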

How the results depend on the processing

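The count of 3 genes up-regulated in fibrotic against control bronchi was 2 to 4 under every alternative except controls 1 and 2 alone, where it was 1. The 4 genes called between fibrotic and non-fibrotic bronchi became 0 with a floor at the 20th percentile, with no intensity trend, with no moderation, with array weights, with only the groups compared or with controls 1 and 2 alone, and 2 with controls 3 to 6 alone or with the form of the label as a fixed block. With the floor, Comp, which is under background, was called 1 time higher in non-fibrotic than in control bronchi and 1 time lower in fibrotic than in non-fibrotic bronchi. With each array left out in turn, the counts ranged from 2 to 4 (fibrotic against control, higher), from 0 to 4 (fibrotic against non-fibrotic, higher) and from 0 to 1 (non-fibrotic against control, lower). The cause of these changes was not tested.

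Changes of sign concerned log2 differences that were not called. In fibrotic against control bronchi, Thbs3 was -0.20 with array weights, -0.26 with controls 3 to 6 alone and -0.17 to 0.21 with an array left out, and Tnr was -0.45 with controls 1 and 2 alone and with the label as a fixed block. In non-fibrotic against control bronchi, Tnc was 0.14 with array weights, 0.21 with controls 1 and 2 alone and with the fixed block, and -1.55 to 0.96 with an array left out. Tnn was -0.49 with array weights, -0.26 with controls 3 to 6 alone and -0.14 to 2.71 with an array left out, and Tnr was 0.0025 with array weights.

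No paired analysis was possible because the labels do not tie specimens to rats, and the groups share no more than 1 replicate number. Other summaries of the probe sets of a gene gave no value, since each measured gene has 1. With 3 arrays a group, and signals under background in Tnr, Comp and the controls of Tnn and Thbs2, small changes of these genes could not be measured.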
